A study of Mus musculus with 7 samples.

Results

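The vanins and the enzymes of coenzyme A synthesis were examined in the livers of SHIVA mice and their controls. The members are the vanins Vnn1 and Vnn3, the pantothenate kinases Pank1, Pank2 and Pank3, and the later enzymes Ppcs, Ppcdc and Coasy, taken by the gene name that the array files give to each probe that is no control. These 8 genes were read by 9 of 55681 probes, out of 36492 gene names on the array. Livers of 3 WT and 4 SHIVA mice were each hybridized to a single-colour Agilent array, all RNA being labelled with the same dye. WT mice were wildtype C57BL/6 animals. SHIVA mice carried a Sox17 mutation on the C57BL/6 background, a point mutation that replaces a methionine by an arginine in the DNA-binding HMG domain. All mice were females of 8 to 12 weeks that had been fasted for 24 h, so no fed liver stands beside them. The SHIVA line came from a chemical mutagenesis screen for low serum pantetheinase, and all its viable carriers are heterozygous, so every SHIVA liver also holds a normal Sox17 allele. A lower Vnn1 signal in these livers is therefore not independent of how the line was found.

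Coenzyme A is made from pantothenate, the vitamin B5. Pantothenate kinases phosphorylate pantothenate, the step that paces the pathway and that coenzyme A and its thioesters inhibit. Ppcs then adds a cysteine, Ppcdc removes its carboxyl group and Coasy completes the molecule. In the opposite direction, coenzyme A is broken down to pantetheine, which the vanins, as secreted or membrane-bound pantetheinases, split into pantothenate and cysteamine. Fasting raises the need for coenzyme A in liver, where fatty acids are activated as thioesters before they are oxidized. Vnn1 is a known target of the fasting receptor PPARα in hepatocytes.

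Because Vnn1 and Vnn3 are paralogs that lie next to each other, what each probe can tell apart matters for the comparison between them. The first 30 of the 60 bases of their probes and of the Pank1 probe are shown, 5′ to 3′.
Vnn1: ctgtttgtcaacagtggactcgggtgtaag
Vnn3: tgctaagtgggagtcaacttgccctggaaa
Pank1: ggtcgagatatcagttagaaataatggtct
The Vnn1 probe lies at chr10:23624524-23624583 and the Pank1 probe at chr19:34885801-34885860 of mm9, the build of the array design. The Vnn3 probe was placed at chr10:23587033-23589353, 2321 bases of genome for a probe of 60, so these bases are not contiguous in the genome. The longest run of bases that the whole Vnn1 and Vnn3 probes share is 6, and at the best ungapped offset 21 bases are equal. Over the 35 pairs of probes of different members, the longest shared run was 8 bases. The array design gives no exon or UTR for these positions, and no annotation of mm9 was used. Coasy alone had more than 1 probe. Its probes, at chr11:100947874-100947933 and chr11:100947876-100947933, cover nearly the same bases and are no independent readings.

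In RefSeq (GRCm38.p6) Vnn3 spans chr10:23851462-23869843 and Vnn1 chr10:23894688-23905344, with 24844 bases between them. The other members lie on chromosomes 2, 4, 9, 11 and 19. Promoter windows, from 250 bases before to 50 after an annotated transcription start, were read for 6 of the 8 members, in 9 windows, and a gene can have several starts. The windows of Vnn1 and Coasy were not analysed here. The windows were searched on both strands for AACAAT, the core bound by Sox proteins, and for 2 copies of AGGTCA with any 1 base between them, an exact form of the repeat bound by PPARα with its partner RXR. The Sox core occurred in 2 of the 9 windows and in 10.7% of all 32851 windows of that length. The repeat occurred in 0 of the 9 and in 0.0396% of all. A single AGGTCA, which the repeat contains, occurred in 2 of the 9, those of Ppcs and Ppcdc, and in 16.3% of all. The windows that hold the Sox core are shown because Sox17 is the mutated factor, with the match in capitals, the Vnn3 window from the plus strand at chr10:23851212-23851511 and the Pank1 window from the minus strand at chr19:34879406-34879705.
Vnn3: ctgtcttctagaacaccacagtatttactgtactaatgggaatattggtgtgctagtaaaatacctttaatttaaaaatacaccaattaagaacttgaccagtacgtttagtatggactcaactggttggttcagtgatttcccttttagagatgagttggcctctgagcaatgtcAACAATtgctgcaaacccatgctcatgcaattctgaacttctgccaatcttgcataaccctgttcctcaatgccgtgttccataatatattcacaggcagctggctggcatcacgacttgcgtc
Pank1: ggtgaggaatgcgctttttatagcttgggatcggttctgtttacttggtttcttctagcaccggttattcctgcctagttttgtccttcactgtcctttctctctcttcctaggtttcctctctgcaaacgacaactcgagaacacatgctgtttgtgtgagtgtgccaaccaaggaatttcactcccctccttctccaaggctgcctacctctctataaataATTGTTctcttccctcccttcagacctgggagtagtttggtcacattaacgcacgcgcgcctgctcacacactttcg
The match begins at position -74 from the start of Vnn3, the outer end of that gene. In the Pank1 window it lies on the opposite strand and begins at -27 from an annotated start that lies inside the span of the gene, not at its outer end. A match of these letters is a description of the window and says nothing about binding.

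Pank1, Pank2 and Pank3 share another feature of sequence. In RefSeq each holds a miRNA gene within its span, Mir107 in Pank1, Mir103-2 in Pank2 and Mir103-1 in Pank3, on the strand of the kinase. The mature 3p forms are shown with the seed, bases 2 to 8, in capitals.
miR-107-3p: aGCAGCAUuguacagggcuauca
miR-103-3p: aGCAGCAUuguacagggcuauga
Both have the seed GCAGCAU and differ at 1 base, position 22. Mir103-1 and Mir103-2 give the same 3p form. The miRNAs themselves were not analysed here.

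Values are log2 signals of processed intensities, quantile normalized over the 7 arrays, and fold changes are SHIVA over WT. The genotypes were compared by limma over 20002 genes, those with a probe that the scanner software marked well above background on at least 3 arrays. The p-values were adjusted over all of them by Benjamini-Hochberg, and an adjusted p under 0.05 was a call. The share of probes so marked was 44.5% to 48.7% of each array, no spot was saturated, and the number of arrays limits the precision. All arrays shared 1 slide, WT in row 1 and SHIVA in row 2, so place and genotype cannot be told apart. Hepatocyte markers were tested in 8 of 8 cases, with none called. The log2 of their summed signal was 19.77 to 19.90 in WT and 19.75 to 19.90 in SHIVA livers. Alb and Serpina1a, at log2 signals of 18.10 to 18.39, make up most of that sum, and quantile normalization holds such bright signals nearly equal. The sum therefore cannot show equal hepatocyte content. For Ttr every SHIVA liver lay below every WT liver (log2 fold change -0.32, limma, adjusted p = 0.363), as for 5.99% of all genes tested. The 6 markers of Kupffer cells had positive log2 fold changes and a summed level of 13.81 to 14.92 in WT and 14.31 to 15.53 in SHIVA livers. Of 7 neutrophil markers, 6 were higher, with a summed level of 9.95 to 10.82 in WT and 9.90 to 11.51 in SHIVA livers. Ngp, Mpo and Ltf were each well above background on 0 WT arrays and 3 SHIVA arrays. They passed the filter only through SHIVA livers, which favours a higher value there, so their sign is no separate result. Among these Mpo was near background, with log2 signals of 1.18 to 1.24, in every WT liver and at 1.16 in SHIVA replicate 4, and at 6.19 to 6.98 in the other SHIVA livers. The 3 bile duct markers tested were lower, with a median log2 fold change of -0.73, and Epcam did not pass the filter. Other lists went both ways. Of the lymphocyte markers tested 2 were lower and 3 higher, and of the endothelial markers 2 were lower and 3 higher. Among stellate and fibroblast markers 3 were lower and 1 was higher. Over all genes tested, 51.2% had a negative log2 fold change. No marker of these lists was called, and their part in the results was not tested.

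Of the 8 members 7 passed the filter on low signal, and 0 of these 7 were called, where 0.375% of all genes tested were. At an unadjusted p under 0.05, 1 member, Vnn1, was lower and 0 were higher, beside 6.09% of all genes tested that were lower. All 7 log2 fold changes were negative, from -1.54 to -0.04, with a median of -0.31, whereas over all genes tested the median was -0.01 and 51.2% were below 0. The negative sign was not stable for the members nearest to 0, since Coasy had a log2 fold change of 0.026 in the authors' table and of 0.086 without WT replicate 2, and Vnn3 one of 0.093 without WT replicate 3. In 2 of the 7, Vnn1 and Pank3, every SHIVA liver lay below every WT liver, as it did for 5.99% of all genes tested. Ppcdc did not pass the filter. The paper lists pantothenate and coenzyme A biosynthesis among the pathways lower in fasted SHIVA livers. It used a pathway score on these arrays, which is another measure than a call of single genes. No pathway score was computed here.

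**Figure D1:**
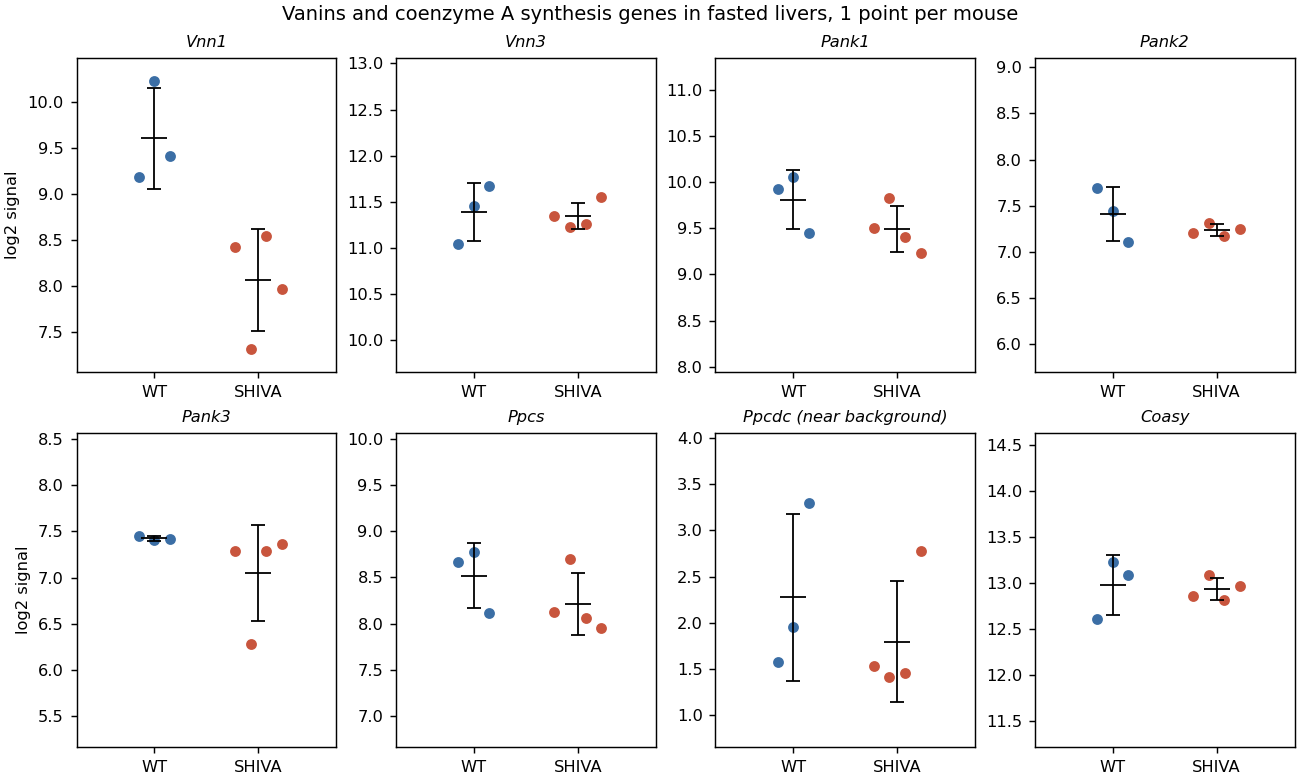
Log2 signal of the 8 members in each liver, WT in blue (n = 3) and SHIVA in red (n = 4), with the mean as a horizontal bar and the SD as error bars; all panels span the same range of log2 units. For Vnn1 the SHIVA livers lie at 7.32 to 8.54 and the WT livers at 9.18 to 10.22, whereas the Pank3 panel shows 1 SHIVA liver, at 6.28, apart from the others.

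Vnn1, the pantetheinase of liver and serum, had log2 signals of 9.18, 10.22 and 9.41 in the WT livers and of 8.42, 7.32, 8.54 and 7.97 in the SHIVA livers. The highest SHIVA liver lay below the lowest WT liver, and the spread was alike in both groups, 9.60 ± 0.55 (SD, n = 3) and 8.06 ± 0.55 (SD, n = 4). The signal was 2.91-fold lower in SHIVA livers (95% interval 1.69 to 5.002), a log2 fold change of -1.54 with a standard error of 0.34. This did not pass the threshold over all genes (limma, adjusted p = 0.132; unadjusted p = 0.00175). Of the 20002 genes tested, 67 had a lower log2 fold change and 260 a smaller p. Over the 35 ways of dividing the mice into 3 and 4, the two-sided exact permutation p was 0.0286, the smallest that this design can give. In whole liver, fewer cells of a type and less RNA per cell cannot be told apart from 1 gene. The 8 hepatocyte markers, measured on the same arrays, had a median log2 fold change of 0.03, from -0.32 to 0.38. The brightest of them are held nearly equal by quantile normalization, so this median cannot show equal hepatocyte content.

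The difference was not carried by 1 liver. SHIVA replicate 2 had the lowest Vnn1 signal, and without it the log2 fold change was -1.29 (limma, adjusted p = 0.179). WT replicate 2 had the highest, and without it the value was -1.23 (limma, adjusted p = 0.332). The paper reports less Vnn1 RNA in SHIVA liver by qRT-PCR. In mice other than those of the arrays, it reports that fasting for 24 h no longer induced Vnn1 in SHIVA liver. It also reports an altered induction of Vnn1 by fasting in Sox17+/− mice.

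Vnn3, the other mouse vanin measured, did not show this difference. Its log2 signals were 11.05, 11.46 and 11.67 in WT and 11.35, 11.23, 11.26 and 11.55 in SHIVA livers. All SHIVA livers lay within the range of the WT livers. The log2 fold change was -0.05 (standard error 0.18, limma, adjusted p = 0.944), and its 95% interval of -0.46 to 0.37 excludes a change of the size measured for Vnn1. A smaller reduction lies within that interval. By qRT-PCR the paper reports a moderate reduction of Vnn3 in SHIVA liver and none in spleen, without giving the feeding state of those mice.

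Signals of different probes are not on a common scale, but the difference of 2 probes within a mouse can be compared between the genotypes. Vnn1 minus Vnn3 was -1.87, -1.24 and -2.26 in WT livers and -2.93, -3.91, -2.72 and -3.58 in SHIVA livers. No SHIVA liver reached the WT range. The shift of -1.49 had an exact permutation p of 0.0286, two-sided, which became 0.114 after adjustment over the 4 pairs of genes compared. With 35 divisions of the mice and 4 pairs, a single pair cannot pass a threshold of 0.05 after this adjustment. Vnn1 minus Pank1 shifted by -1.22 (exact permutation p = 0.0571, adjusted p = 0.114), and there too the genotypes did not overlap, with WT livers at -0.75 to 0.17 and SHIVA livers at -2.51 to -0.87.

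**Figure D2:**
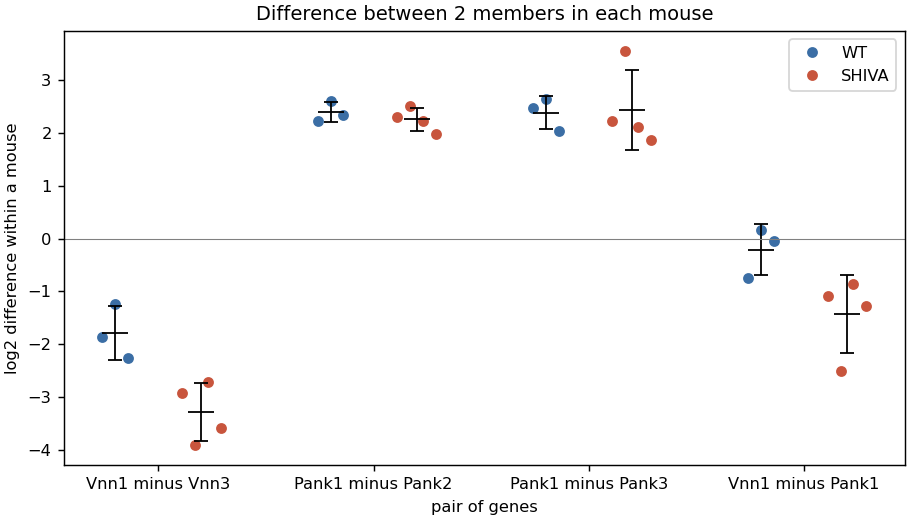
Log2 difference between the signals of 2 members within each mouse, for the 4 pairs compared, WT in blue and SHIVA in red, with mean (horizontal bar) and SD (error bars). The genotypes are apart for Vnn1 minus Vnn3 and Vnn1 minus Pank1 and overlap for Pank1 minus Pank2 and Pank1 minus Pank3.

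The genes that flank the vanins were read to see whether the locus differed as a whole. Of the 5 annotated genes on either side, 7 had a probe and 2 were tested, both upstream of Vnn3. Rps12, which encodes a ribosomal protein, had a log2 fold change of 0.15 (limma, adjusted p = 0.809). Slc18b1, a transporter of polyamines, had log2 signals of 5.64, 5.77 and 5.11 in WT and of 4.82, 5.38, 4.28 and 4.70 in SHIVA livers. These ranges overlapped, and the log2 fold change was -0.71 (standard error 0.27, limma, adjusted p = 0.309). The trace amine receptor genes Taar1 to Taar5 beyond Vnn1 did not pass the filter.

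Sox17, the mutated gene, had log2 signals of 4.52, 3.41 and 3.92 in WT and of 4.62, 4.46, 4.76 and 4.70 in SHIVA livers, which is 0.69 higher on the log2 scale (limma, standard error 0.25, adjusted p = 0.279). Its probe was well above background on 2 WT arrays and all 4 SHIVA arrays. A point mutation need not change the level of its own RNA, so this is no check of the labels. Sox9, Sox7 and Sox18, related factors, had log2 fold changes of 0.60, 0.24 and 0.04, none of them called. Ppara, which encodes the receptor PPARα, stood at 12.19, 12.61 and 12.33 in WT and at 11.66, 11.75, 11.64 and 11.78 in SHIVA livers. Its genotypes did not overlap, as with Vnn1, and the log2 fold change of -0.67 (standard error 0.15, limma, adjusted p = 0.132) missed the threshold as well. For its partner Rxra the log2 fold change was -0.04 (limma, adjusted p = 0.955), and for the coactivator Ppargc1a it was 0.32 (limma, adjusted p = 0.855). The Ppargc1a signals were 7.68, 8.02 and 8.39 in WT and 8.67, 6.62, 8.80 and 9.29 in SHIVA livers. SHIVA replicate 2 lay below every WT liver and the other SHIVA livers above them.

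Among the pantothenate kinases none was called. Pank1, which is prominent in liver, had log2 signals of 9.93, 10.05 and 9.45 in WT and of 9.51, 9.83, 9.41 and 9.24 in SHIVA livers. The ranges overlapped through WT replicate 3, the lowest WT liver. The log2 fold change was -0.32 (95% interval -0.78 to 0.15, limma, adjusted p = 0.556). Pank2, whose human form is mutated in a neurodegeneration with iron in the brain, had log2 signals of 7.69, 7.44 and 7.11 in WT livers and a narrower range of 7.17 to 7.32 in SHIVA livers. All SHIVA livers lay inside the WT range, and the log2 fold change was -0.18 (95% interval -0.56 to 0.20, limma, adjusted p = 0.706).

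Pank3 had log2 signals of 7.45, 7.40 and 7.42 in WT and of 7.29, 6.28, 7.29 and 7.37 in SHIVA livers. The groups did not overlap, but the nearest livers were 7.37 and 7.40, and the size of the difference came mainly from SHIVA replicate 2. With all mice the log2 fold change was -0.37 (95% interval -0.98 to 0.23, limma, adjusted p = 0.604), and without that mouse it was -0.11 (limma, adjusted p = 0.782). The kinases were also set against each other within a mouse. Pank1 minus Pank2 shifted by -0.14 (exact permutation p = 0.343, adjusted p = 0.457) and Pank1 minus Pank3 by 0.05 (exact permutation p = 0.971, adjusted p = 0.971). The second shift lay near 0 and its sign was not stable. It was -0.32 without SHIVA replicate 2, -0.12 without WT replicate 3 and -0.00082 after normexp background correction.

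Of the enzymes after the kinases, Ppcs and Coasy had fold changes with intervals that include 0, and Ppcdc could not be tested. Ppcs, which joins cysteine to phosphopantothenate, had log2 signals of 8.67, 8.77 and 8.11 in WT and of 8.12, 8.70, 8.06 and 7.95 in SHIVA livers. SHIVA replicates 1 and 2 lay inside the WT range, replicate 1 only just above the lowest WT liver, so the genotypes overlapped. Its log2 fold change was -0.31 (95% interval -0.84 to 0.23, limma, adjusted p = 0.624). Coasy, which carries out the closing steps, had log2 signals of 12.61, 13.23 and 13.08 in WT and of 12.86, 13.09, 12.82 and 12.97 in SHIVA livers. Every SHIVA liver lay inside the WT range. The log2 fold change was -0.04 (95% interval -0.45 to 0.37, limma, adjusted p = 0.949), and its second probe gave -0.12 (limma, adjusted p = 0.81). Ppcdc, the decarboxylase between these steps, was not well above background on any of the 7 arrays, so its probe says nothing of its level in either genotype.

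Likeness to Vnn1 and to Pank1 was measured as the root mean square difference between log2 profiles over the 7 livers, each centred on its mean. Among those nearest to Vnn1 were C730029A08Rik, Rfx4, Pltp and Col27a1, at 0.27 to 0.30 log2 units. In these 4 every SHIVA liver lay below every WT liver, as for Vnn1, whose profile chose them. Rfx4, a transcription factor gene, had a log2 fold change of -1.34 (limma, adjusted p = 0.114) and Pltp, the phospholipid transfer protein of plasma, one of -1.08 (limma, adjusted p = 0.215). Col27a1, a collagen gene, had -1.18 (limma, adjusted p = 0.132). None of the 4 was called. Nearest to Pank1 were Fam53a, Ctu2, Bag5, Mmadhc and Pggt1b, at 0.06 to 0.08 log2 units, with log2 fold changes of -0.33 to -0.22 and none called.

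Beyond the members, 26 further genes were read, here called the other pathway genes. They take up pantothenate, move, use or break down coenzyme A, or handle compounds that also occur in it, and some are relatives of its enzymes. Of these 24 were tested and 0 called. At an unadjusted p under 0.05, 5 were lower and 1 was higher, where 6.09% of all genes tested were lower and 7.24% higher. The median log2 fold change of the 24 was -0.07. Gadl1 and Aldh1l2 did not pass the filter.

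**Figure D3:**
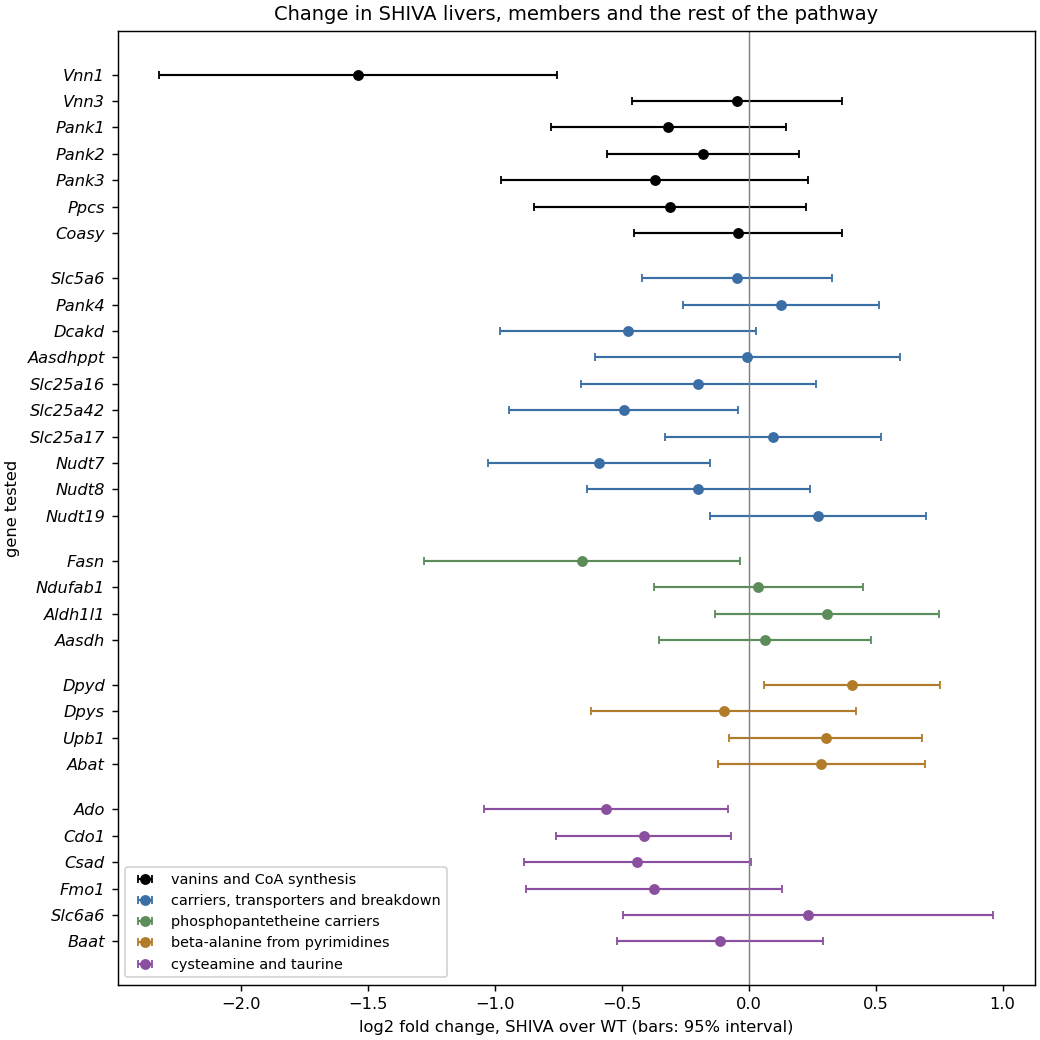
Log2 fold change of SHIVA over WT (points) with its 95% interval (bars) for the 7 members tested and 24 of the other pathway genes, coloured by list. Vnn1, at -1.54, lies farthest from 0, and every other point lies between -0.66 and 0.41.

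Among 10 genes for uptake, transport, transfer and breakdown, 2 were lower at an unadjusted p under 0.05. Nudt7, a peroxisomal enzyme that hydrolyses coenzyme A, had log2 signals of 10.84, 10.54 and 10.29 in WT and of 9.77, 10.24, 10.09 and 9.76 in SHIVA livers. The genotypes did not overlap, and the log2 fold change was -0.59 (standard error 0.19, limma, adjusted p = 0.247). Nudt19, another peroxisomal hydrolase of coenzyme A, had a log2 fold change of 0.27 and Nudt8, its mitochondrial counterpart, one of -0.20. Slc25a42, which carries coenzyme A into mitochondria, had a log2 fold change of -0.49 (limma, standard error 0.20, adjusted p = 0.332), while Slc25a16, also linked to mitochondrial coenzyme A, had -0.20 and the peroxisomal carrier Slc25a17 had 0.10. Slc5a6, the vitamin transporter that takes up pantothenate, had -0.05, and Pank4, a relative of the kinases that lacks their activity, had 0.13. Dcakd, related to the enzyme of the last step, had a log2 fold change of -0.48 (limma, adjusted p = 0.402), and Aasdhppt, which moves the phosphopantetheine arm onto carrier proteins, had -0.01.

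Of the proteins that bear that arm, fatty acid synthase had the lowest value. Fasn had log2 signals of 7.30, 7.56 and 8.23 in WT and of 7.02, 7.04, 7.51 and 6.59 in SHIVA livers. These overlapped, and the log2 fold change was -0.66 (standard error 0.27, limma, adjusted p = 0.352). Ndufab1, the mitochondrial acyl carrier protein, Aldh1l1, a folate enzyme, and Aasdh, related to acyl-activating enzymes, had log2 fold changes of 0.04, 0.31 and 0.06.

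Some genes make β-alanine, which is a chemical part of pantothenate, from pyrimidines or consume it. Pantothenate reaches the mouse as a vitamin, so these genes are not a source of it. Of these 3 of 4 had positive values, with a median log2 fold change of 0.29, where 51.2% of all genes tested were negative. Dpyd, which begins this breakdown, had log2 signals of 12.81, 13.07 and 13.28 in WT and of 13.51, 13.44, 13.49 and 13.41 in SHIVA livers. All SHIVA livers lay above all WT livers, as they also did for Upb1 and for 6.12% of all genes tested. The log2 fold change of Dpyd was 0.41 (standard error 0.15, limma, adjusted p = 0.297), and that of Upb1, the last enzyme of this route, was 0.30 (limma, adjusted p = 0.487). Dpys, the enzyme between them, had -0.10, and Abat, a transaminase of β-alanine, had 0.29.

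Cysteamine, the other product of the vanins, is oxidized to hypotaurine and on to taurine. Of 6 genes tested for this route and its branches, 5 had negative log2 fold changes, with a median of -0.39, and 0 were called. Of all genes tested 51.2% had negative values, and so few genes set no direction for the route. Ado, which oxidizes cysteamine, had log2 signals of 6.998, 6.74 and 6.12 in WT and of 5.93, 6.15, 6.04 and 6.10 in SHIVA livers. The WT liver at 6.12 lay within the SHIVA range, and the log2 fold change was -0.56 (standard error 0.21, limma, adjusted p = 0.3). Cdo1, which oxidizes cysteine, had 15.55, 15.14 and 15.22 in WT and 14.91, 14.85, 14.80 and 14.99 in SHIVA livers. Here the genotypes did not overlap, and the log2 fold change was -0.41 (standard error 0.15, limma, adjusted p = 0.289). Csad, which makes hypotaurine from the product of Cdo1, had a log2 fold change of -0.44 (limma, adjusted p = 0.387). Fmo1, which oxidizes hypotaurine, had -0.37, the bile acid conjugating enzyme Baat -0.11, and the taurine transporter Slc6a6 0.23.

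**Figure D4:**
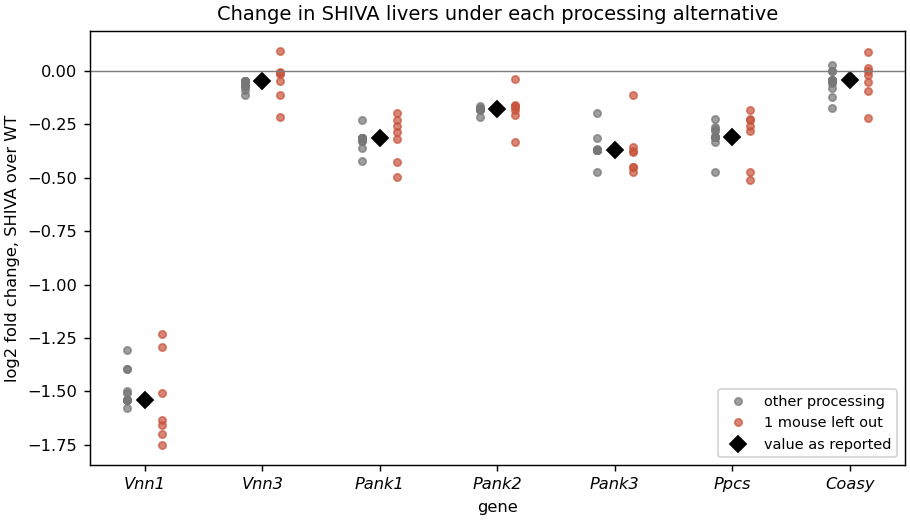
Log2 fold change of SHIVA over WT for the 7 members tested, as reported (black diamonds), under other ways of processing (grey points) and with 1 mouse left out at a time (red points). Vnn1 stays between -1.75 and -1.23, whereas Vnn3 and Coasy lie on either side of 0.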

How the data were processed

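Liver RNA of 3 WT and 4 SHIVA mice was measured on 1 single-colour Agilent array per mouse, with groups taken from the labels. The authors deposited the scanner output, whose processed intensity comes from Agilent Feature Extraction 10.5.1.1 with detrending, without subtraction of a local background and with surrogate values for low signals. A second deposited file, the authors' log2 table, is described by them as quantile normalized and ranks probes as the mean signal does. The processed intensity was put on the log2 scale, and spots marked uneven or deviant were left out (120 to 163 per array). The log2 values were then quantile normalized and averaged by probe. A gene was read from its brightest probe, by mean signal, and names were updated through RefSeq (GRCm38.p6), which named 26413 probes. Genes entered the test when that probe was marked well above background on 3 or more arrays, and were compared with limma 3.58.1 in R 4.3.3 with Benjamini-Hochberg adjustment. Of these steps, the limma comparison and its adjustment were tested on simulated data. Differences between members were tested by exact permutation of the mice. The members and gene lists were chosen with earlier results of these data known. Genes named are the members, the genes of those lists, the neighbours of the vanins and the 5 genes nearest to Vnn1 and to Pank1, of which 1 is not reported here. Sequences are those of the array files and of RefSeq. The labels do not say whether mice shared litters or cages, so p-values measure the spread between these mice. Alternatives covered scaling, background, filter, probes, array weights, a replicate block, each mouse left out, the authors' table and the methods' t-test.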

Additional observations from a re-analysis of the deposited data

Results flagged for a closer look

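Among 40 genes searched, the members, the other pathway genes, Sox17 and the other regulators, and the neighbours of the vanins, 3 had a SHIVA liver far from the other 3, at a criterion that chance meets in about 1 in 20 groups, or about 2 of the 40. Each time it was SHIVA replicate 2. Its log2 signal was 6.28 for Pank3, where the nearest of the others was at 7.29. For Aasdh it was 7.87, with the nearest at 7.33, and for Rxra it was 7.97, with the nearest at 8.37. The same array had the highest share of probes well above background, 48.7%. Whether these have a common source was not tested.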

How the results depend on the processing

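For Vnn1 the log2 fold change lay between -1.75 and -1.23 under the alternatives run, and passed the threshold over all genes in none of them (adjusted p between 0.0564 and 0.363). The filters, the mean of all probes and the methods' t-test leave this value as it is and bear only on its p. Tests of this gene alone, with no adjustment, gave -1.54 a p of 0.0286 by exact permutation of the mice, 0.00175 by limma and 0.0145 by the methods' test. Pank1, Pank2, Pank3 and Ppcs kept a negative sign under the alternatives that could move them. Coasy had log2 fold changes of 2.8e-05 with the mean signal and 0.026 in the authors' table, and -0.22 to 0.086 with 1 mouse left out. Vnn3 ranged from -0.22 to 0.093 with 1 mouse left out. The shift of Pank1 minus Pank3 was -0.00082 after normexp background correction and -0.32 to 0.24 with 1 mouse left out. The other pathway genes gave 0 calls under every alternative run.

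The count of calls over the whole array, 75, moved far more. It was 141 with the mean signal and 141 in the authors' table, 283 with array weights, 13 with no filter on dim probes and 0 by the methods' t-test after adjustment, which gave 2299 at an unadjusted p under 0.05 (limma 2667). Leaving out WT replicate 1 gave 3, the lowest count with 1 mouse left out, and leaving out WT replicate 3 gave 416, the highest. The cause was not tested. The deviations of mice of the same replicate number correlated with r of -0.05, 0.01 and 0.24, and not every mouse correlated best with its own number, so the numbers were not taken to pair the mice. With the replicate block 32 genes were called and Vnn1 had -1.51 (limma, adjusted p = 0.238). SHIVA replicate 4 has no WT mouse of its number, so the block takes it out of the comparison. The Vnn1 log2 fold change is therefore the same as without that mouse.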
